A study of Macaca mulatta with 4 samples.

Results

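The genes described here run the folate cycle, the methionine cycle and the making and breaking of serine and glycine, in prefrontal cortex of infant rhesus macaques (Macaca mulatta). They were chosen by name, from a list of 39 symbols, and 38 of them had a row of their own in the deposited table of 33618 genes. PSPH, the phosphatase of the last step of serine synthesis, had no row under its symbol and was skipped. Of the 38 genes, 35 passed the filter on low counts and were tested, and FOLR1, DMGDH and BHMT were too low to test. RNA was sequenced in 4 libraries, all labelled wild type. The 2 libraries of the sevoflurane group came from animals given the inhaled anaesthetic at about 2.5% to 3% for 4 hours around postnatal day 7, with further exposures placed 14 and 28 days later. The cortex was taken directly after the last of these exposures. The 2 control libraries carry the agent label none. The sources used here do not state how the controls were treated. The libraries carry the replicate numbers 2 and 3 in both groups, and nothing in the labels ties them to separate animals. The p-values below thus cover the spread from sample to sample alone, whether biological or technical.

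Folate carries single carbon units at several oxidation states. Serine is the main donor: serine hydroxymethyltransferase passes its side-chain carbon to tetrahydrofolate and leaves glycine, in the cytosol by SHMT1 and in mitochondria by SHMT2. The carbon is then spent on thymidylate, on purine rings, or on turning homocysteine back into methionine, from which S-adenosylmethionine supplies methyl groups for DNA, histones, phospholipids and myelin proteins. In brain, serine is made largely in astrocytes from a glycolytic intermediate, and serine and glycine are also precursors of or ligands at NMDA and glycine receptors.

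Total counts lay between 7793757 and 11706115 per library. Neuronal transcripts were abundant in every library of this cortical tissue: SNAP25, a synaptic vesicle fusion protein, had 1030 to 1380 CPM (counts scaled by library total and TMM factor). The library of least depth, control replicate 3, lay far from the others on the first principal component of all tested genes, at -50.02 against -0.44 in control replicate 2 and 28.8 and 21.66 in the sevoflurane libraries. Markers of mature oligodendrocytes, the cells that make myelin, had summed levels of 9400 and 14800 CPM in the control libraries and 2450 and 3660 CPM in the sevoflurane libraries. Of 10 neuron markers and 8 endothelial markers 0 were called, with median log2 fold changes of 0.13 and -0.03. In bulk tissue, fewer cells of a type and less RNA per cell cannot be told apart.

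Of the 35 tested genes, 1 was higher after sevoflurane and 0 were lower at a Benjamini-Hochberg adjusted p under 0.05 by edgeR's quasi-likelihood test. Over all 17693 tested genes, 0.599% were called in either direction, 0.0622% as higher and 0.537% as lower. The called gene was SDS, serine dehydratase, which breaks serine down to pyruvate and ammonia. At an unadjusted p under 0.05 there were 3 genes, SDS, PHGDH and TYMS, which is 8.57% of the 35 against 9.92% of all tested genes. DESeq2 and limma-voom each called SDS alone among them. The median log2 fold change was -0.05, with 12 genes above 0 and 23 below, beside 0.00 over all tested genes. The median size of the change without its sign was 0.16, beside 0.21 over all tested genes.

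**Figure D1:**
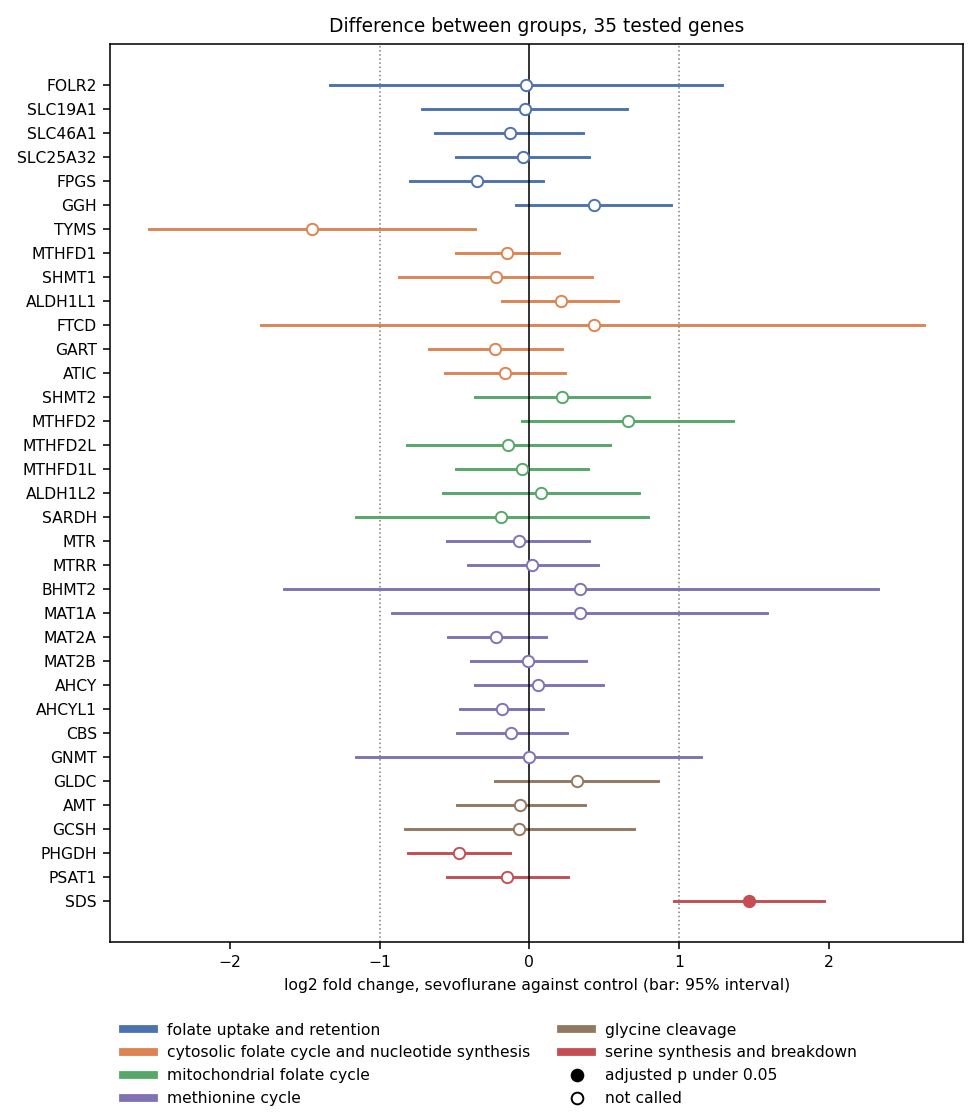
Log2 fold change of each of the 35 tested genes, sevoflurane against control (x axis), with its 95% interval (bar), grouped by role (colour). The filled point marks SDS, at 1.47, the one gene with an adjusted p under 0.05; dotted lines mark 2-fold changes in either direction.

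The precision of these values differed widely between genes. For 26 of the 35 genes (74.3%) the 95% interval of the difference lay inside a 2-fold change in both directions, as it did for 62.4% of all tested genes. For 13 it lay inside a 1.5-fold change. The other 9 intervals, those of SDS, TYMS, MTHFD2, FOLR2, FTCD, SARDH, BHMT2, MAT1A and GNMT, reached beyond 2-fold. In CPM, the libraries of both groups overlapped for 24 genes. Both sevoflurane libraries lay above both controls for 4 (GGH, ALDH1L1, MTHFD2 and SDS) and below them for 7 (SLC46A1, FPGS, TYMS, MTHFD1, AHCYL1, CBS and PHGDH). These 11 are 31.4% of the 35, beside 41.2% of all tested genes whose groups did not overlap.

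**Figure D2:**
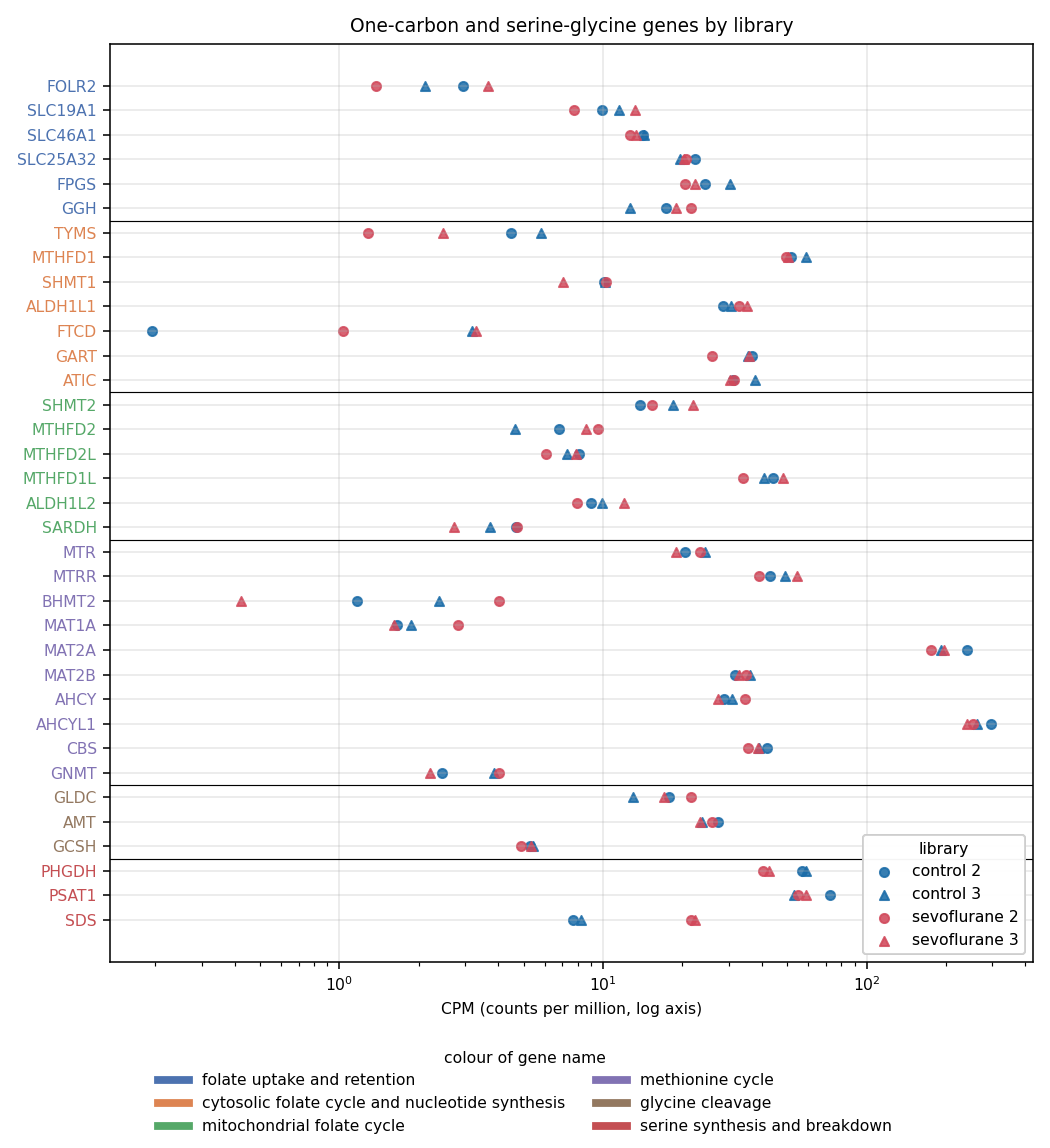
CPM of each tested gene in each library (x axis, log scale), with controls in blue and sevoflurane in red, circles for replicate 2 and triangles for replicate 3. Within most genes the 4 points lie close together and mix; the SDS points form separate pairs near 8 and 22 CPM.

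Serine synthesis and breakdown held both the called gene and the gene with the next smallest p. SDS had 7.71 and 8.22 CPM in control replicates 2 and 3 and 21.6 and 22.4 CPM in sevoflurane replicates 2 and 3. The libraries of a group nearly coincided and the groups were far apart. Mean SDS levels were 7.97 ± 0.362 CPM in controls and 22 ± 0.555 CPM after sevoflurane (SD, n = 2 each). SDS thus rose by a log2 fold change of 1.47, with SE 0.22 and a 95% interval of 0.97 to 1.97 (adjusted p = 0.0251, edgeR's quasi-likelihood test). It rested on 79 and 62 counts in the controls and 253 and 264 after sevoflurane. In liver, SDS is known as a gluconeogenic enzyme induced by glucagon and glucocorticoids. With any single library left out, its value stayed between 1.42 and 1.51. Such a fit leaves 1 library in a group and takes the spread from the other group, so its p-value adds no support of its own.

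Neither gene beside SDS was called. SDSL, the closely related serine dehydratase-like gene, is the nearest protein-coding gene on one side in the RefSeq table of assembly T2T-MMU8v2.0. It had 4.20 and 6.50 CPM in the controls and 2.65 and 4.16 CPM after sevoflurane, or -0.64 as log2 fold change (SE 0.43, adjusted p = 0.701). PLBD2, on the other side, had 84.9 and 114 CPM in the controls and 93.9 and 107 CPM after sevoflurane (log2 fold change 0.02, SE 0.17). Human SDS is also known from monocytes and macrophages. Of 11 microglia and perivascular macrophage markers, 5 lay above the controls in both sevoflurane libraries and 4 lay below, so 81.8% did not overlap, beside 41.2% of all tested genes. Their summed levels were 398 and 360 CPM in the controls and 296 and 376 CPM after sevoflurane, which overlap. CX3CR1, a receptor of resident microglia, fell (log2 fold change -1.03, adjusted p = 0.02), and CD163, a scavenger receptor of perivascular macrophages, had 14.2 and 15.9 CPM in the controls and 23.7 and 47.9 CPM after sevoflurane (1.25, SE 0.31, adjusted p = 0.154). The part of these cells in the SDS result was not tested.

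PHGDH, the first and committed step of serine synthesis, had 56.7 and 58.7 CPM in control replicates 2 and 3 and 40.3 and 42.8 CPM in sevoflurane replicates 2 and 3. The groups did not overlap and the gap between them was several times that between replicates. Its log2 fold change of -0.47 (SE 0.15) had a 95% interval of -0.81 to -0.13, and after adjustment over all genes it was not called (adjusted p = 0.301 by edgeR). PSAT1, the aminotransferase of the next step, had 72.4 and 53.0 CPM in the controls and 54.7 and 59.0 CPM after sevoflurane. Its high value came from control replicate 2 alone, and the groups overlapped (-0.15, SE 0.18, adjusted p = 0.864). PHGDH is enriched in astrocytes. Of 12 astrocyte markers, GFAP, the astrocyte intermediate filament, was the one called gene (-1.41, adjusted p = 0.00928 by edgeR). Of the 12, 8 had values below 0, among them AGT (-0.90, adjusted p = 0.0509), S100B (-0.76), AQP4 (-0.49), GJA1 (-0.40) and SOX9 (-0.40), and 4 had values above 0, among them SLC1A2 and SLC1A3 (both 0.06). In 6 of the 12 both sevoflurane libraries lay below both controls, and in 1 above. Thus 58.3% did not overlap, beside 41.2% of all tested genes. Summed levels of the 12 markers were 10100 and 8470 CPM in the controls and 6220 and 6280 CPM after sevoflurane. GFAP carried the gap between these sums: without it they were 4880 and 4600 CPM against 4690 and 4380 CPM, which overlap. SLC1A2, at 1810 to 2100 CPM, and SLC1A3, at 1140 to 1250 CPM, made up most of the sum without GFAP. That sum thus says little of the less abundant markers. Whether astrocyte content moved PHGDH was not tested.

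**Figure D3:**
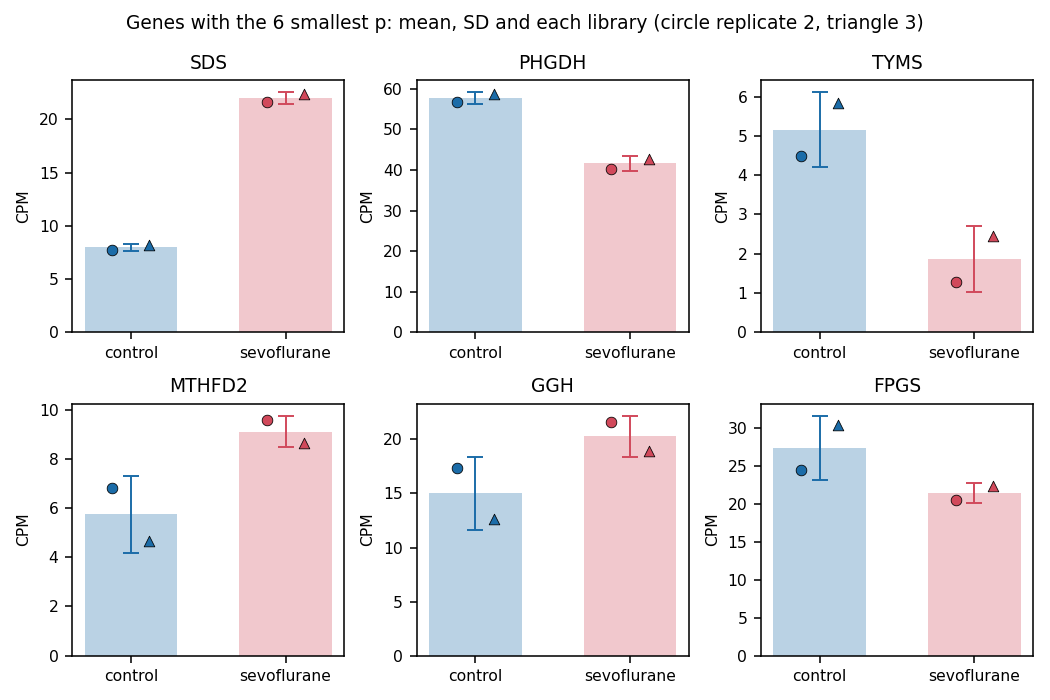
CPM in each library for the 6 tested genes with the smallest p, with bars for the mean and whiskers for the SD of 2 libraries per group; circles are replicate 2 and triangles replicate 3. SDS and PHGDH show tight pairs, while TYMS, MTHFD2, GGH and FPGS do not overlap between groups but vary more between replicates.

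The glycine cleavage system degrades glycine in mitochondria and loads its carbon onto folate. None of its 3 tested subunits was called, and all 3 had intervals inside a 2-fold change. GLDC, the glycine decarboxylase, had 17.8 and 13 CPM in the controls and 21.5 and 17.0 CPM after sevoflurane, so the higher control lay above the lower sevoflurane library (0.32, SE 0.24, adjusted p = 0.749). The value of GLDC was 0.12 when control replicate 3 was left out, 0.14 when sevoflurane replicate 2 was, and 0.56 when control replicate 2 was. AMT, the aminomethyltransferase, had 27.3 and 23.7 CPM against 25.8 and 23.4 CPM (-0.06, SE 0.19). GCSH, the carrier protein that shuttles the intermediate between the other subunits, was the steadiest, with 5.27 and 5.44 CPM against 4.87 and 5.35 CPM (-0.07, SE 0.34).

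Among genes of folate uptake and retention, 0 of the 6 tested were called, with a median of -0.04. GGH, the gamma-glutamyl hydrolase that trims folate's glutamate tail so that it can leave the cell, had 17.4 and 12.6 CPM in the controls and 21.6 and 18.9 CPM after sevoflurane. FPGS, the synthase that adds this tail and so keeps folate in, had 24.4 and 30.4 CPM in the controls and 20.5 and 22.3 CPM after sevoflurane. The enzymes thus stood on opposite sides, GGH at 0.43 (SE 0.23, adjusted p = 0.618 by edgeR) and FPGS at -0.35 (SE 0.20, adjusted p = 0.635), and neither passed. Both moved with the control libraries: leaving out control replicate 3 gave 0.22 for GGH and -0.19 for FPGS, and leaving out control replicate 2 gave 0.68 and -0.51. SLC46A1, the proton-coupled folate transporter, had 14.2 and 14.3 CPM in the controls and 12.7 and 13.3 CPM after sevoflurane, a small gap without overlap (-0.13, SE 0.22). SLC19A1, the reduced folate carrier, had 9.95 and 11.5 CPM against 7.77 and 13.2 CPM, the sevoflurane libraries lying on either side of the controls (-0.03, SE 0.30). SLC25A32, the mitochondrial folate transporter, had 19.6 to 22.4 CPM in all 4 libraries (-0.04, SE 0.20).

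The folate receptors were low. FOLR2, known from tissue-resident macrophages, had 2.93 and 2.12 CPM in the controls and 1.37 and 3.65 CPM after sevoflurane (-0.02, SE 0.58), and its interval of -1.33 to 1.29 reached beyond 2-fold in both directions. FOLR1, the receptor that moves folate across the choroid plexus, had 3 counts in control replicate 2 and in sevoflurane replicate 3 and 0 in the other libraries. A count of 0 allows up to 0.398 CPM in control replicate 3 and 0.256 CPM in sevoflurane replicate 2, as counting error only. FOLR1 is itself among 8 choroid plexus markers, of which 6 were tested and 0 called, 4 with values above 0 and 2 below. Their summed levels were 30.7 and 37.3 CPM in the controls and 26.3 and 25.8 CPM after sevoflurane. The largest part was AQP1, a water channel also found in other cells, with 14.4 and 20 CPM against 4.02 and 7.30 CPM (-1.60, SE 0.33, adjusted p = 0.0844), while KCNJ13, a potassium channel, had 2.21 (SE 0.97, adjusted p = 0.5). Of the defining markers, TTR had 1.07 and 0 CPM in the controls and 1.71 and 0.170 CPM after sevoflurane, and OTX2 had 0 counts in all libraries.

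In the cytosolic folate cycle and nucleotide synthesis, 0 of 7 tested genes were called, with a median of -0.16. TYMS, thymidylate synthase, had 4.49 and 5.83 CPM in the controls and 1.28 and 2.46 CPM after sevoflurane, from 46, 44, 15 and 29 counts. Both sevoflurane libraries lay below both controls, and the replicates of each group stood about equally far apart in CPM. Its log2 fold change of -1.45 (SE 0.48) had a 95% interval of -2.54 to -0.36 and was not called (adjusted p = 0.325 by edgeR). Leaving out sevoflurane replicate 2 gave -1.06, and leaving out sevoflurane replicate 3 gave -1.99. ENOSF1, the nearest protein-coding gene after TYMS in the RefSeq table, had 4.29 and 4.77 CPM in the controls and 2.14 and 2.63 CPM after sevoflurane (-0.92, SE 0.43, adjusted p = 0.535). In humans ENOSF1 is transcribed antisense to TYMS and overlaps its end. In the macaque RefSeq table the genes are neighbours without overlap, and which annotation the counts used is not stated.

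TYMS is most active in dividing cells. Of 12 markers of dividing cells 11 were tested and 0 were called, and 7 of the 11 had values below 0. Both sevoflurane libraries lay below both controls for 4 of the 11 and above for 1. Thus 45.5% did not overlap, beside 41.2% of all tested genes. Summed levels of the 12 markers were 78.6 and 63.1 CPM in the controls and 60.7 and 65.2 CPM after sevoflurane, so these sums overlapped. MKI67, a proliferation antigen, had 12 and 5.97 CPM in the controls and 5.55 and 7.04 CPM after sevoflurane. BIRC5, an inhibitor of apoptosis expressed in mitosis, had 18 and 20 counts in the controls and 0 and 5 after sevoflurane, and was not called (adjusted p = 0.27). The part of dividing cells in the TYMS values was not tested.

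The other cytosolic enzymes differed little. MTHFD1, the trifunctional enzyme that interconverts the folate-bound carbon, had 51.7 and 58.9 CPM in the controls and 49.3 and 50.4 CPM after sevoflurane (-0.15, SE 0.15, 95% interval -0.49 to 0.20). ALDH1L1, which releases the carbon as carbon dioxide and is widely used as an astrocyte marker, had 28.4 and 30.6 CPM in the controls and 32.7 and 35.3 CPM after sevoflurane. Its groups did not overlap, in the direction opposite to PHGDH (0.21, SE 0.17, adjusted p = 0.772). SHMT1 had 10.1, 10.2 and 10.3 CPM in the controls and sevoflurane replicate 2 and 7.04 CPM in sevoflurane replicate 3, the one library that stood off (-0.22, SE 0.29). GART, which carries 3 activities of purine synthesis on a single protein, had 35.4 to 36.7 CPM in 3 libraries and 25.9 CPM in sevoflurane replicate 2 (-0.23, SE 0.20). Without that library GART had -0.01, and without sevoflurane replicate 3 it had -0.48. ATIC, which closes the purine ring, had 37.7 CPM in control replicate 3 and 30.2 to 31.5 CPM elsewhere (-0.16, SE 0.18). FTCD, which feeds carbon from histidine breakdown, had 0.195 and 3.18 CPM in the controls and 1.03 and 3.31 CPM after sevoflurane. The replicates of FTCD thus differed far more than the groups, and its interval ran from -1.79 to 2.64.

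In the mitochondrial folate cycle, 0 of 6 tested genes were called, with a median of 0.01. MTHFD2, the mitochondrial dehydrogenase and cyclohydrolase best known from dividing and tumour cells, had 6.83 and 4.64 CPM in the controls and 9.57 and 8.65 CPM after sevoflurane. Its groups did not overlap, yet the controls differed by more than the nearest libraries of both groups did. The value of 0.66 (SE 0.31) had an interval of -0.05 to 1.36 (adjusted p = 0.555 by edgeR). It ranged from 0.41 without control replicate 3 to 0.97 without control replicate 2. MTHFD2L, its relative in adult tissues, had 8.10 and 7.29 CPM against 6.07 and 7.89 CPM (-0.14, SE 0.30). SHMT2 had 13.8 and 18.4 CPM in the controls and 15.4 and 22 CPM after sevoflurane, with the replicate 3 library the higher of each group (0.22, SE 0.26). MTHFD1L, which releases formate for the cytosol, had 44.0 and 40.7 CPM against 34.1 and 48.0 CPM (-0.05, SE 0.20). ALDH1L2, the mitochondrial counterpart of ALDH1L1, had 8.98 and 9.95 CPM against 7.95 and 12 CPM (0.08, SE 0.29). SARDH, which demethylates sarcosine, had 4.68 and 3.71 CPM against 4.70 and 2.72 CPM (-0.19, SE 0.43). DMGDH, which demethylates dimethylglycine, had 0, 2, 4 and 0 counts in control replicates 2 and 3 and sevoflurane replicates 2 and 3.

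**Figure D4:**
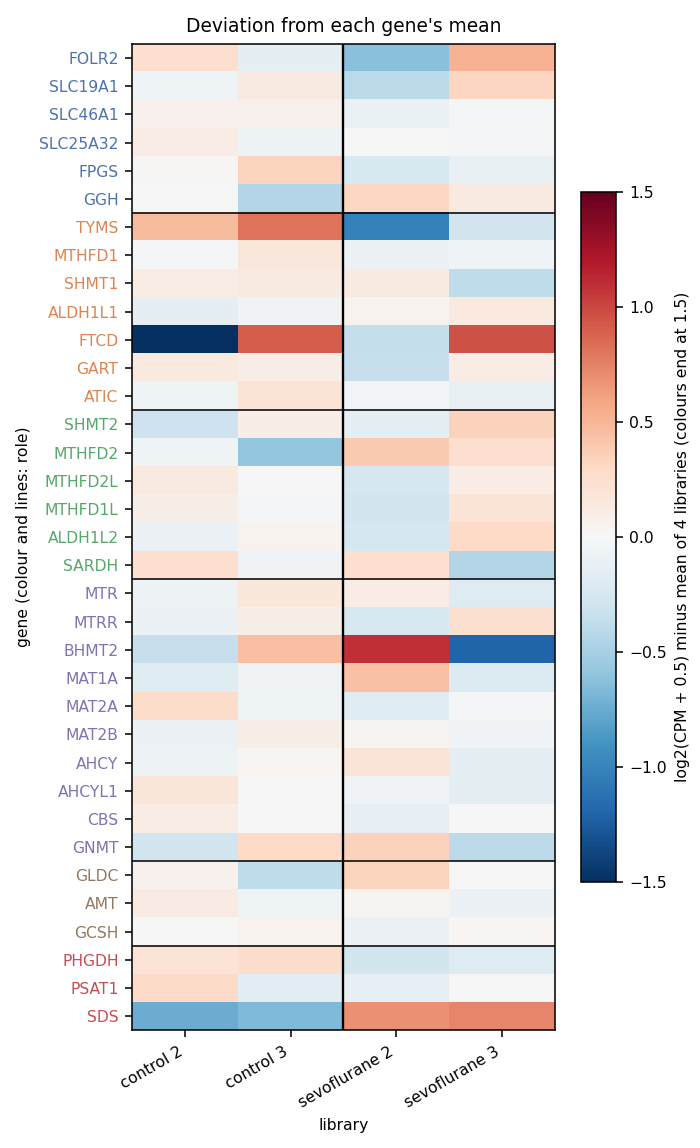
Deviation of log2(CPM + 0.5) from each gene's mean over the 4 libraries (colour), for the 35 tested genes (rows, by role) in each library (columns). SDS, TYMS and PHGDH are among the genes that split by group, while FTCD and BHMT2 differ most between replicates of one group. The colour scale ends at 1.5.

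The methionine cycle had 10 tested genes, of which 0 were called, with a median of 0.00 and values from -0.22 to 0.34. For 7 of the 10 the interval lay inside a 1.5-fold change. MAT2A, the S-adenosylmethionine synthetase of tissues other than liver, had 241 and 192 CPM in the controls and 176 and 197 CPM after sevoflurane (-0.22, SE 0.14, 95% interval -0.54 to 0.11). The control libraries set its size, which was -0.05 when control replicate 2 was left out and -0.37 when control replicate 3 was. MAT2B, its regulatory subunit, had 31.8 and 36.1 CPM against 34.9 and 32.7 CPM (-0.01, SE 0.17). AHCY, which clears the inhibitory product S-adenosylhomocysteine, had 28.7 and 30.9 CPM against 34.7 and 27.4 CPM (0.06, SE 0.19). AHCYL1, an AHCY-like protein that regulates IP3 receptors, had 297 and 262 CPM in the controls and 253 and 240 CPM after sevoflurane, without overlap (-0.18, SE 0.12, adjusted p = 0.703 by edgeR).

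MTR, the vitamin B12-dependent methionine synthase, had 20.4 and 24.3 CPM in the controls and 23.4 and 18.9 CPM after sevoflurane (-0.07, SE 0.21). MTRR, the reductase that reactivates it, had 43.1 and 48.8 CPM against 39 and 54.4 CPM (0.02, SE 0.19). Within the sevoflurane group these partners stood in opposite order, MTR higher in replicate 2 and MTRR in replicate 3. CBS, which diverts homocysteine into cysteine synthesis, had 41.8 and 38.9 CPM against 35.6 and 38.8 CPM, groups that barely separated (-0.12, SE 0.16).

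Genes of the cycle best known from liver and kidney were low, at 4.02 CPM or less in every library. BHMT, which remethylates homocysteine with betaine, had 2 and 3 counts in the controls and 18 and 6 after sevoflurane and was not tested. BHMT2, its neighbour and relative, had 12 and 18 counts in the controls and 47 and 5 after sevoflurane, so sevoflurane replicates 2 and 3 held the highest and the lowest value (0.34, SE 0.88, 95% interval -1.64 to 2.33). MAT1A, the liver S-adenosylmethionine synthetase, had 1.66 and 1.86 CPM in the controls and 2.82 and 1.61 CPM after sevoflurane (0.34, SE 0.56). GNMT, the glycine methyltransferase that buffers S-adenosylmethionine, had 2.44 and 3.85 CPM against 4.02 and 2.21 CPM (0.00, SE 0.51). All 4 genes were highest in sevoflurane replicate 2. Markers of meningeal and perivascular fibroblasts were also highest in that library, with summed levels of 282 and 158 CPM in the controls and 671 and 255 CPM in sevoflurane replicates 2 and 3, and their part in these genes was not tested. BHMT and BHMT2 both overlap DMGDH in the RefSeq table, and PEX6, which overlaps GNMT there, had 62.8 and 65.1 CPM in the controls and 49.0 and 52.2 CPM after sevoflurane. In all, 12 of the 38 genes overlapped another protein-coding gene of the count table, so low values such as that of GNMT could hold reads of a neighbour.

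Across the 35 genes, the median difference between libraries of a group was larger than that between group means, most of all in the sevoflurane group. The median gap between group means was 0.15 on the log2 scale, against median gaps of 0.19 between the control libraries and 0.30 between the sevoflurane libraries. Over all tested genes these gaps were 0.20, 0.28 and 0.18. A gap between means of 2 libraries tends to be smaller than one between single libraries, so the measures are unlike. The gap between groups exceeded both replicate gaps for 8 of the 35 genes (22.9%), beside 27.9% of all tested genes. Sevoflurane replicate 2 held the lowest level of 15 of the 35 genes and the highest of 9, and sevoflurane replicate 3 the lowest of 10 and the highest of 9. The mean deviation over the 35 genes was near 0 in every library, between -0.04 and 0.05. Summed over all 38 genes, levels were 1240 and 1160 CPM in the controls and 1090 and 1140 CPM after sevoflurane.

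Genes that supply or use the same metabolites were read from 7 lists chosen by pathway. Of their 99 tested genes 0 were higher and 1 was lower, with a median of -0.01. That gene was SLC44A1, a choline transporter whose substrate feeds betaine and phosphatidylcholine. SLC44A1 had 298 and 306 CPM in the controls and 174 and 188 CPM after sevoflurane, and fell (log2 fold change -0.74, SE 0.12, adjusted p = 0.0322 by edgeR). It was not called with no filter on low counts (adjusted p = 0.0586), without sevoflurane replicate 2 (0.247) or without sevoflurane replicate 3 (0.0701). All 12 tested markers of mature oligodendrocytes lay below both controls in both sevoflurane libraries, and 11 were called lower (median -1.87). Over all tested genes 20.4% lay below and 0.537% were called lower. The part of oligodendrocytes in the SLC44A1 value was not tested.

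Among 19 tested genes of serine and glycine transport and use 0 were called (median -0.07). At an unadjusted p under 0.05 by edgeR there were 4, SLC6A9, SPTLC2, SLC1A5 and DLD. These are 21.1% of the 19, beside 9.92% of all tested genes. Both sevoflurane libraries lay above both controls for 4 of the 19 and below for 6. Thus 52.6% did not overlap, beside 41.2% of all tested genes. SLC6A9, the glycine transporter GLYT1, had 39.4 and 50.5 CPM in the controls and 22 and 26.1 CPM after sevoflurane (-0.90, SE 0.19, adjusted p = 0.0988 by edgeR). SPTLC2, a subunit of the enzyme that joins serine to palmitate for sphingolipids, had 92.3 and 108 CPM against 64.2 and 65.2 CPM (-0.62, SE 0.14, adjusted p = 0.128). Both lay lower in both sevoflurane libraries without passing, and DESeq2 called both (adjusted p = 0.0153 and 0.0315). SLC1A5 had 16 and 16 counts in the controls and 5 and 7 after sevoflurane (-1.82, SE 0.69, adjusted p = 0.404 by edgeR). SFXN1, the mitochondrial serine carrier, had 89.9 to 94.8 CPM in all 4 libraries (0.05, SE 0.13). SLC7A10, the astrocytic and neuronal exchanger of serine, had 9.95 and 13.8 CPM against 10.3 and 9.76 CPM (-0.23, SE 0.26).

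The transcription factor ATF4 is known to switch on PHGDH, PSAT1, SHMT2 and MTHFD2 when amino acids run short. Of 21 tested genes of ATF4 and the amino acid response 0 were called, with a median of -0.02. ATF4 itself had 159 and 202 CPM in the controls and 170 and 186 CPM after sevoflurane (-0.02, SE 0.15), and ASNS, asparagine synthetase, had 53.9 and 54.5 CPM against 46.0 and 51.3 CPM (-0.16, SE 0.15). DDIT4, a stress-induced inhibitor of mTORC1, had 17.0 and 19.0 CPM against 27.7 and 51.9 CPM (1.15, SE 0.28, adjusted p = 0.154 by edgeR and 0.0131 by DESeq2). Without sevoflurane replicate 3 DDIT4 had 0.63. CEBPG, a partner of ATF4, had 0.35 (SE 0.18, adjusted p = 0.59).

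Apart from SLC44A1, the remaining lists held no called gene. The 9 genes of de novo purine synthesis had a median of 0.14, led by PPAT, the committed step, with 9.66 and 10.6 CPM in the controls and 14.4 and 12.7 CPM after sevoflurane (0.42, SE 0.24, adjusted p = 0.637), and IMPDH2 of guanine nucleotide synthesis (-0.24, SE 0.17). The 9 genes of thymidylate and deoxynucleotide supply had a median of 0.11. Around TYMS they stood on both sides: DTYMK, the kinase of the product of TYMS, had 3.42 and 2.52 CPM against 1.79 and 1.19 CPM (-1.0, SE 0.53, adjusted p = 0.611), while the mitochondrial thymidine kinase TK2 had 31.2 and 24.4 CPM against 42.1 and 37.0 CPM (0.50, SE 0.19, adjusted p = 0.4). The 10 genes of transsulfuration and glutathione had a median of 0.19, with CSAD of taurine synthesis at -0.49 (SE 0.21, adjusted p = 0.483) and GCLM, the modifier subunit of glutathione synthesis, at 0.56 (SE 0.26, adjusted p = 0.548). The 14 genes of vitamin B12 uptake and folate-linked cofactors had a median of -0.02, with the B12 transporter ABCD4 at -0.61 (SE 0.18, adjusted p = 0.261) and QDPR, which regenerates tetrahydrobiopterin, at -0.26 (SE 0.17). Of the 17 genes of methyl donor use and polyamines, which include SLC44A1 (median -0.19), the spermine synthase SMS had 63.4 and 63.8 CPM in the controls and 87.8 and 90.4 CPM after sevoflurane (0.49, SE 0.14, adjusted p = 0.224).

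**Figure D5:**
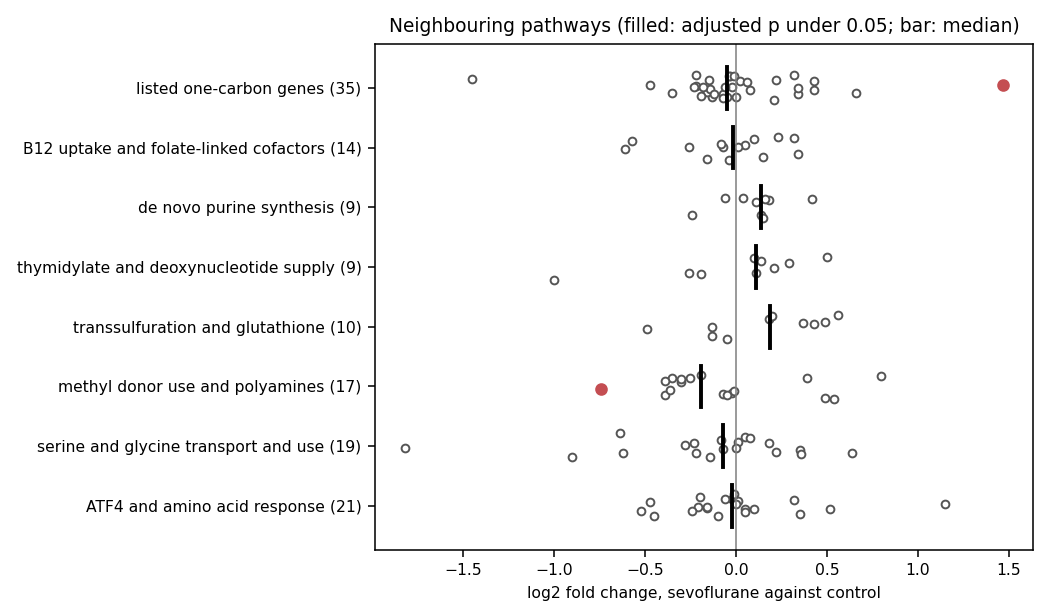
Log2 fold change, sevoflurane against control (x axis), of each tested gene of the one-carbon list and of 7 neighbouring pathway lists (rows, number of genes in brackets); black bars are medians and filled points have an adjusted p under 0.05. The medians lie between -0.19 and 0.19, and the filled points are SDS at 1.47 and SLC44A1 at -0.74.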

How the data were processed

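Raw counts of reads per gene were deposited by the authors as a table with a column for each library. HISAT2 was the aligner, per the submitters' processing notes, which name no version. The sources used here state no counting program, genome build, annotation or strand setting, so near-identical copies and overlapping genes are uncertain. Genes were matched by exact symbol. List genes were also matched by a RefSeq number or older symbol (5 of 113 pathway genes, 1 not found). No genome was used, and no sequences or coordinates are given.

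Counts were fitted over the whole table with edgeR 4.0.16 in R 4.3.3 (filterByExpr with at least 10 counts at median depth and 15 in total, TMM scaling, group as the only term, two-sided quasi-likelihood F test). Benjamini-Hochberg adjustment ran over all 17693 tested genes, and a gene was called under 0.05. SE is the log2 fold change over the root of F, and intervals are 95%. With 2 libraries against 2 an exact permutation test cannot go below 0.333. The steps were tested on simulated data. Alternatives were DESeq2 1.42.0, limma-voom (limma 3.58.1), a likelihood ratio test, other scalings, filters and thresholds, a robust fit, the replicate number as a block, and leaving out each library. The astrocyte sum without GFAP was added after the data were seen. Each tested member is described; of each pathway list, called genes and the 2 smallest p are named. SNAP25, SDSL, PLBD2, ENOSF1, PEX6, SFXN1, SLC7A10, SLC1A5, DLD, ATF4, ASNS, CD163, MKI67, BIRC5, SLC1A2, SLC1A3, AGT, S100B, GJA1, SOX9, AQP4, KCNJ13, TTR and OTX2 were named after their values were seen. Members and lists were chosen with earlier results of these data known.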

Additional observations from a re-analysis of the deposited data

How the results depend on the processing

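SDS was called under every alternative run at an adjusted p under 0.05, with values from 1.42 to 1.51. With no filter it passed only narrowly (adjusted p = 0.0489 by edgeR's quasi-likelihood test). Fits without 1 library assume that the lone library of a group varies like the other group, so calls in them are no separate support. At an adjusted p under 0.01 the count of one-carbon genes called higher was 0. No one-carbon gene was called lower under any alternative run. DESeq2 gave no adjusted p for 6 of the 35 genes, TYMS among them. The scaling alternatives moved the median of all genes by at most 0.01.

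Counts over all genes, 11 higher and 95 lower, depended on the test. They were 3 and 57 with no filter, 57 and 218 by DESeq2, 137 and 304 by the likelihood ratio test, and 7 higher by limma-voom. With 1 library left out they ranged from 27 to 81 higher and from 118 to 232 lower. Pathway neighbours, 0 higher and 1 lower, had 1 and 3 by DESeq2 and by the likelihood ratio test, 0 lower with no filter, and 0 to 1 higher and 0 to 3 lower with 1 library left out.

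The replicate numbers showed no sign of pairing (correlation of same-numbered deviations 0.01). With the number as a block, 170 genes were higher and 341 lower, with 1 and 3 among pathway neighbours and 1 and 0 among one-carbon genes. SDS kept 1.47 (adjusted p = 1.43e-05 by edgeR's quasi-likelihood test), though its SE was 0.28 with the block and 0.22 in the main fit. The block leaves less data to estimate the spread, yet the SDS p-value fell while its SE rose. The reason was not tested, and the larger counts and smaller p-value add no support of their own.

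Of 448 values of single one-carbon genes under alternatives, 34, in 19 genes that were not called, changed sign. With library size alone MAT2B had 0.01 and GNMT 0.02. By limma-voom BHMT2 had -0.27 and MAT2B 0.00, and with the replicate block BHMT2 had -0.08. With 1 library left out, log2 fold changes ran from -2.02 to 1.19 for BHMT2, -0.67 to 3.40 for FTCD, -0.88 to 0.52 for FOLR2, -0.50 to 0.36 for GNMT, -0.46 to 0.29 for SLC19A1, -0.63 to 0.16 for SARDH, -0.52 to 0.03 for SHMT1 and -0.12 to 0.68 for MAT1A. They ran from -0.25 to 0.34 for ALDH1L2, -0.06 to 0.45 for SHMT2, -0.31 to 0.18 for MTHFD1L, -0.24 to 0.24 for MTRR, -0.24 to 0.07 for MTR, -0.34 to 0.03 for MTHFD2L, -0.35 to 0.10 for PSAT1, -0.12 to 0.22 for AHCY, -0.15 to 0.05 for AMT, -0.14 to 0.06 for SLC25A32 and -0.10 to 0.08 for MAT2B. Without a change of sign, but by over 1.5 times, they ran from -0.24 to -0.05 for MTHFD1, -0.29 to -0.02 for ATIC, -0.27 to -0.09 for AHCYL1 and -0.18 to -0.06 for CBS. The cause of these shifts was not tested. At 2 libraries per group, the tested one-carbon genes with a mean under 5 CPM had intervals that reached beyond a 2-fold change.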
